A study of Homo sapiens with 17 samples.

Results

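Selenoproteins are made from mRNAs in which an in-frame UGA is read as selenocysteine instead of stop, and 10 such human mRNAs were followed gene by gene through a Ribo-STAMP experiment. They were taken by gene name (GPX1, GPX4, TXNRD1, TXNRD2, SELENOF, SELENOH, SELENOK, SELENOS, SELENOT and SELENOW) and make up 10 of the 18869 genes with values. All 10 had a value in every fraction. Ribo-STAMP joins the ribosomal protein RPS2 to the cytidine deaminase APOBEC1, so that an mRNA carried by a ribosome collects C-to-U edits that can be read in RNA-seq. The cells were HEK293T, an established human embryonic kidney line, with a stable, doxycycline-inducible construct. RNA was sequenced from the Input and from immunoprecipitates (IPs) of PABPN, the mainly nuclear poly(A)-binding protein, and PABPC, the cytoplasmic one, to ask how translated the transcripts held by each protein are.

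The RPS2-STAMP cells expressed the RPS2-APOBEC1 fusion and gave 3 samples each of Input, PABPN IP and PABPC IP. The Control-STAMP cells expressed APOBEC1 without RPS2 and gave 3 Input, 3 PABPN IP and 2 PABPC IP samples. All 17 samples shared induction with doxycycline at 50 ng/ml over 24 h and crosslinking in 0.1% formaldehyde, and, per the design, 1 lysate was split between the IPs of a replicate. The study took both IPs, the PABPN IP included, from cytoplasm of fractionated cells, while the labels name no fractionation.

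To insert selenocysteine, the ribosome needs a stem-loop in the 3′ untranslated region of the mRNA (the SECIS element), the SECIS-binding protein SECISBP2, the specialised elongation factor EEFSEC and a dedicated transfer RNA. Where insertion fails, the same UGA acts as a stop codon, and one that lies well upstream of an exon junction can expose the mRNA to nonsense-mediated decay. Most selenoproteins are redox enzymes that place selenocysteine at the catalytic site, and they are known for removing peroxides, keeping thioredoxin reduced and controlling protein quality in the endoplasmic reticulum (ER).

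The bases around the selenocysteine codon are printed because this codon is what the 10 mRNAs have in common. Of the 10 windows 8 are printed, without those of SELENOK and SELENOT. Each line gives up to 12 bases on either side of the codon on the coding strand of the GENCODE release 44 canonical transcript, genome build hg38, and capitals mark the selenocysteine TGA. The codon lay at chr3:49358132-49358134 in GPX1, chr19:1105403-1105405 in GPX4, chr12:104348413-104348415 in TXNRD1, chr22:19877111-19877113 in TXNRD2, chr1:86880690-86880692 in SELENOF, chr15:101272777-101272779 in SELENOS, chr11:57741816-57741818 in SELENOH and chr19:47780732-47780734 in SELENOW. GPX1, TXNRD2, SELENOF and SELENOS lie on the minus strand and the other 4 on the plus strand. The windows of SELENOH and SELENOW join 2 exons, and those of TXNRD1, TXNRD2 and SELENOS end with the stop codon.
GPX1: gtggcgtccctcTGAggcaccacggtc
GPX4: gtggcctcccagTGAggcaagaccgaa
TXNRD1: caggctggctgcTGAggttaa
TXNRD2: gtgacaggctgcTGAgggtaa
SELENOF: gaagtttgtggaTGAaaattgggaagg
SELENOS: tcatctggcggaTGAggctaa
SELENOH: cattgcactagcTGAcgcgtctatggg
SELENOW: tattgtggcgctTGAggctacaagtcc

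Each of the 10 mRNAs had 1 annotated selenocysteine codon. The base after the TGA was G in 8 of the 10, with A in SELENOF and C in SELENOH. It was G in 5 of the 15 other human selenoprotein genes, at the first such codon of each. The comparison set, here and for the levels, was 9607 protein-coding genes that reached 5 TPM (a transcript level scaled to length and library size) in each IP, a filter that all 10 mRNAs passed. Among the 4793 of them annotated to end translation at TGA, the next base was G in 37.5%. None of the 10 ended translation at TGA (6 at TAA and 4 at TAG), where 50.0% of the comparison set did. The mRNAs fell into 2 sets by the place of the codon. In TXNRD1, TXNRD2, SELENOK and SELENOS it stood within the last 5 residues, at codon 648 of 649, 523 of 524, 92 of 94 and 188 of 189. In the other 6 it stood farther upstream, from codon 13 of 87 in SELENOW to codon 96 of 165 in SELENOF. The codon was more than 50 bases upstream of the last exon junction in 7 of the 10, it was 5 bases upstream in SELENOK, and in TXNRD1 and SELENOS it lay in the last exon. The coding sequences were short, with a median of 579 bases against 1323 in the comparison set.

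**Figure D1:**
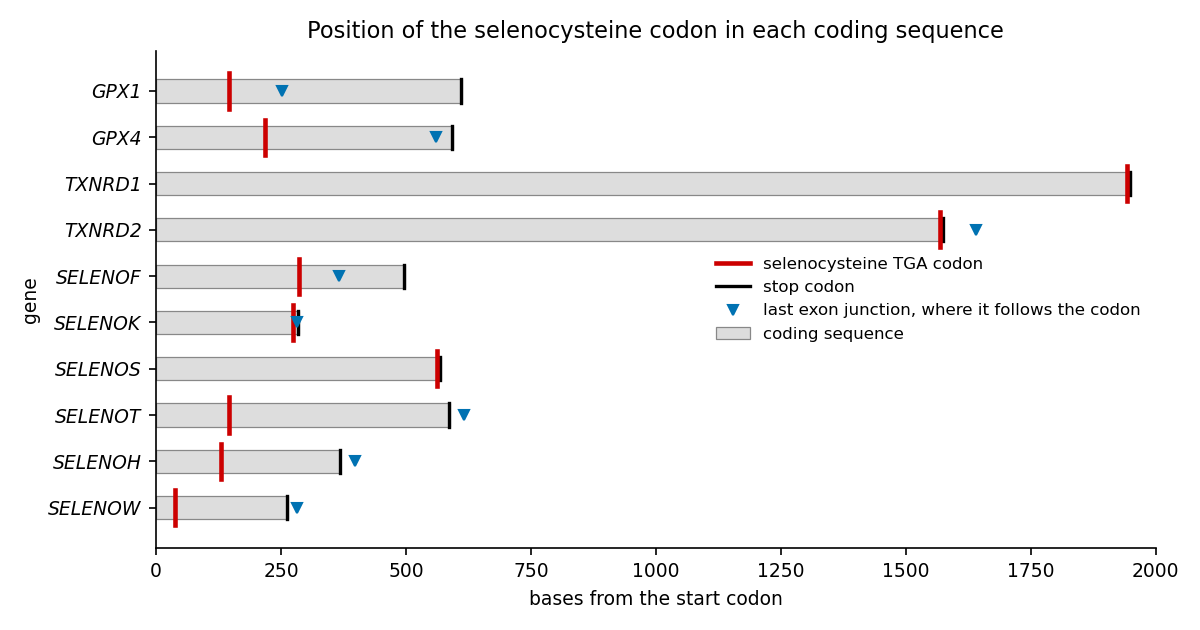
Coding sequence of each selenoprotein mRNA drawn to scale in bases from the start codon, with the selenocysteine TGA codon (red), the stop codon (black) and the last exon junction where it follows the codon (blue triangle). The codon sits at the very end in TXNRD1, TXNRD2, SELENOK and SELENOS and well inside the coding sequence in the other 6.

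Editing is given as normalized EPKM, edits per kilobase scaled to the reads of the library, less the editing of the control condition. No value is below 0, and how negative differences were treated is not given in the sources used here. At a gene listed at 0, an absence of edits, low editing by RPS2-STAMP and high editing by the control therefore cannot be told apart. Edits are counted over a whole gene, so passage of ribosomes over the UGA itself was not measured. Abundance is given as average TPM, which here adds exonic and intronic reads. Whether RPS2-STAMP samples, Control-STAMP samples or both entered the average is not given in the sources used here, which also limits each comparison of editing with abundance. The values were pooled over replicates by the authors, with 1 value a gene and fraction, so they carry no SD, n or test. The authors give read depth over the STAMP libraries as a whole, and the depth of each fraction and the number of edits behind an EPKM are not given in the sources used here. The order of neighbouring genes could therefore not be judged against replicate spread, and the labels of the STAMP lines could not be checked against the expression of their constructs. In these bulk libraries, fewer cells with an mRNA and less of it per cell cannot be told apart. The median EPKM of the 9607 protein-coding genes was 0.0273 in the Input, 0.0501 with PABPC and 0.0334 with PABPN.

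Both glutathione peroxidases were abundant and were listed at 0 for editing in the PABPC IP. GPX1, the cytosolic enzyme that reduces hydrogen peroxide (ENSG00000233276, chr3:49357174-49358605), had an EPKM of 0.190 in the Input, while both IPs listed it at 0. Its TPM was 745 in the Input, 2519 with PABPC and 1298 with PABPN. GPX1 was thus the most abundant of the 10 mRNAs in every fraction, while its editing was above 0 in the Input alone. In the PABPC IP, 37 protein-coding genes including GPX1 were at least as abundant, their median EPKM was 0.429, and 4 of them were at 0. In the PABPN IP, 33 genes were at least as abundant as GPX1, their median EPKM was 0.0482, and 15 of them were at 0. A listing at 0 was therefore uncommon at this abundance with PABPC and frequent with PABPN.

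GPX4, which reduces lipid peroxides in membranes and restrains ferroptosis (ENSG00000167468, chr19:1103982-1106791), had an EPKM of 0.0868 in the Input, 0 with PABPC and 0.0575 with PABPN. Its TPM was 241 in the Input, 1057 with PABPC and 325 with PABPN. The mRNA was most abundant with PABPC, the fraction in which it was listed at 0. Of the 112 protein-coding genes at least as abundant in the PABPC IP, GPX4 included, 16 were at 0, and the median EPKM was 0.314. In the Input, the 77 protein-coding genes at least as abundant as GPX1 had a median EPKM of 0.247, beside 0.190 in GPX1, and the 251 at least as abundant as GPX4 had 0.294, beside 0.0868 in GPX4. In the PABPN IP, the 237 genes at least as abundant as GPX4 had a median EPKM of 0.0810, beside 0.0575 in GPX4.

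GPX1 has a processed pseudogene that is nearly identical to it, and the values of the pair were looked up after GPX1 was seen at 0. GPX1P1 (chrX:13378735-13379340, minus strand) is 606 bases long and 98.2% identical to the GPX1 transcript over 606 aligned bases, with 11 mismatches. Its EPKM was 0 in the Input, 1.46 with PABPC and 0 with PABPN, the value with PABPC ranking 3 among the 18869 genes. Its TPM was 55.5 in the Input, 173 with PABPC and 69.3 with PABPN. In the PABPC IP, parent and copy thus stood at opposite ends of the editing range. Over the selenocysteine codon the copy, at chrX:13379188-13379214, differs from GPX1 at 1 base of the window and keeps the TGA, as its sequence shows.
GPX1P1: gtggcgtccctcTGAggctccacggtc
Reads of so similar a pair can be placed on either gene, so the editing of GPX1 is uncertain in the Input as in the IPs. The copy aligned within bases 76 to 687 of the 899 bases of the GPX1 transcript, which are its coding sequence. The part of the copy in the values of GPX1 was not tested. A second copy, GPX1P2, is 95.3% identical to GPX1. SELENOT has a copy as close as GPX1P1, SELENOTP1 (chr9:6278667-6279153), which is 98.2% identical to it over 487 aligned bases, and copies of SELENOK and SELENOW reach 94.3% and 92.9%. The levels of these further copies were not analysed here, so the same limit holds for SELENOT.

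**Figure D2:**
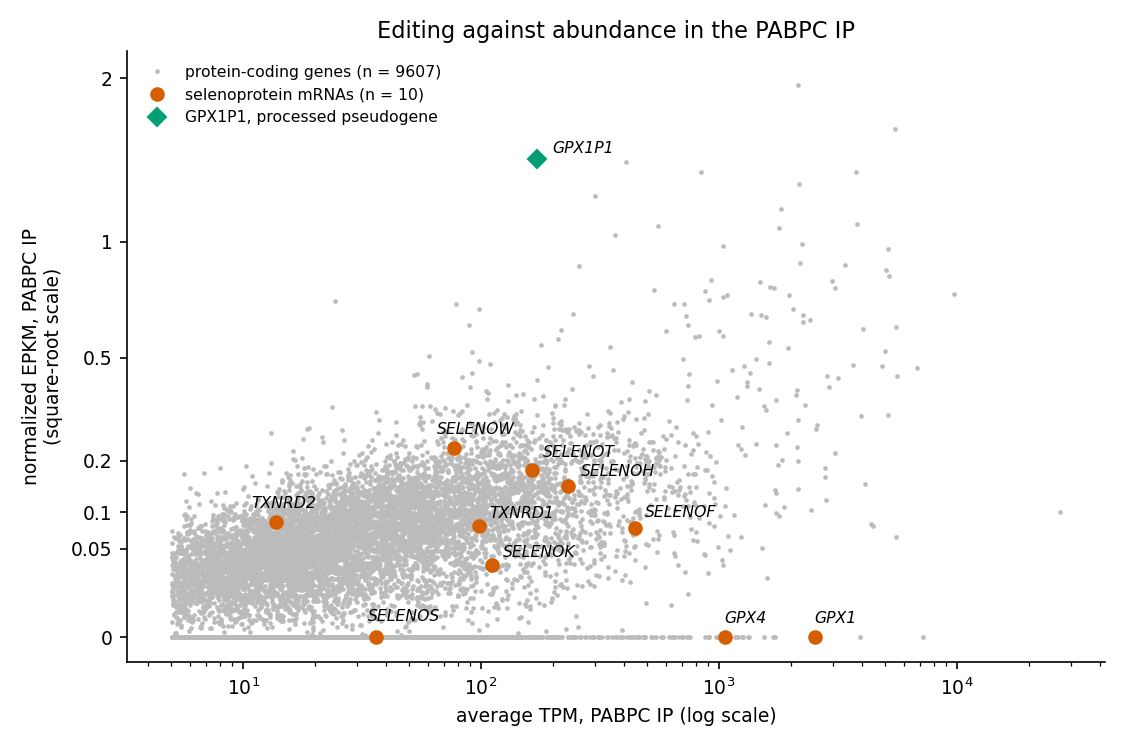
Normalized EPKM (square-root scale) against average TPM (log scale) in the PABPC IP for 9607 protein-coding genes (grey), the 10 selenoprotein mRNAs (orange) and the pseudogene GPX1P1 (green). GPX1 and GPX4 lie at 0 among abundant genes, SELENOW, SELENOT and SELENOH lie in the upper part of the cloud, and GPX1P1 lies near the top at 1.46.

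The thioredoxin reductases, which return oxidised thioredoxin to its reduced form with NADPH, were edited in all 3 fractions. TXNRD1, the cytosolic enzyme (ENSG00000198431, chr12:104215779-104350307), had an EPKM of 0.177 in the Input, 0.0791 with PABPC and 0.0266 with PABPN. TXNRD2, its mitochondrial counterpart (ENSG00000184470, chr22:19875517-19941820), had 0.0265 in the Input, 0.0849 with PABPC and 0.0114 with PABPN. Both were edited more with PABPC than with PABPN, 2.98-fold for TXNRD1 and 7.44-fold for TXNRD2, but they differed in the Input, where TXNRD1 had its highest value and TXNRD2 did not. The fold of TXNRD2 rests on a low value with PABPN. With 0.01 EPKM added, the log2 ratios of PABPC over PABPN were 1.28 for TXNRD1 and 2.15 for TXNRD2. TXNRD1 had a TPM of 46.1 in the Input, 98.3 with PABPC and 64.2 with PABPN. TXNRD2 was the least abundant of the 10 mRNAs, with a TPM of 7.56 in the Input, 13.7 with PABPC and 10.6 with PABPN. In GENCODE release 44, other genes overlap GPX1 (ENSG00000290318, on the same strand), TXNRD1 (EID3), SELENOH (BTBD18) and SELENOT (SERP1). Regions of overlapping genes had been removed from the authors' release 34 annotation before TPM was counted, and that annotation was not used here.

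The 4 ER proteins covered most of the range of editing. SELENOT, a thioredoxin-like protein of the ER membrane (ENSG00000198843, chr3:150602875-150630436), had an EPKM of 0.232 in the Input, 0.179 with PABPC and 0.101 with PABPN. It had the highest Input and PABPN IP values of the 10 mRNAs and was above the median of protein-coding genes in every fraction. SELENOF, a partner of the glucosyltransferase that inspects glycoprotein folding (ENSG00000183291, chr1:86862445-86914424), had 0.208 in the Input, 0.0767 with PABPC and 0.0560 with PABPN. SELENOK, a membrane protein linked to ER-associated degradation and palmitoylation (ENSG00000113811, chr3:53884417-53891885), had 0.136 in the Input, 0.0331 with PABPC and 0 with PABPN. These 3 mRNAs shared the order Input, PABPC IP, PABPN IP from highest to lowest. SELENOS, which takes part in moving misfolded proteins out of the ER (ENSG00000131871, chr15:101270817-101277500), departed from it with 0.00410 in the Input, 0 with PABPC and 0.0429 with PABPN. It was the sole mRNA of the 10 with its highest editing in the PABPN IP.

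The abundance of the ER mRNAs followed 1 order. SELENOF had a TPM of 133 in the Input, 443 with PABPC and 183 with PABPN. SELENOT had 54.1, 164 and 84.2 TPM in the Input, PABPC IP and PABPN IP. SELENOK had 40.8, 112 and 45.7 TPM in these fractions, and SELENOS 15.2, 36.1 and 25.1 TPM. All 4 were most abundant in the PABPC IP and least in the Input, SELENOS included, whose editing was 0 with PABPC.

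SELENOW and SELENOH had their highest editing with PABPC. SELENOW, a cytosolic protein with a thioredoxin fold (ENSG00000178980, chr19:47778677-47784686), had an EPKM of 0.0505 in the Input, 0.228 with PABPC and 0.0452 with PABPN. SELENOH, a nucleolar DNA-binding protein (ENSG00000211450, chr11:57741491-57743554), had 0.0120 in the Input, 0.146 with PABPC and 0 with PABPN. The value of SELENOW with PABPC was 4.52-fold its Input value and 5.06-fold its PABPN IP value, and that of SELENOH was 12.2-fold its Input value, which put SELENOW highest of the 10 mRNAs in that IP and SELENOH next after SELENOT. SELENOW was edited above 96.1% of protein-coding genes in the PABPC IP and SELENOH above 87.8%. SELENOH had a TPM of 65.5 in the Input, 233 with PABPC and 104 with PABPN. SELENOW had 24.9, 76.8 and 64.2 TPM, so that its abundance in the IPs differed little, by 1.20-fold, where its editing differed 5.06-fold.

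**Figure D3:**
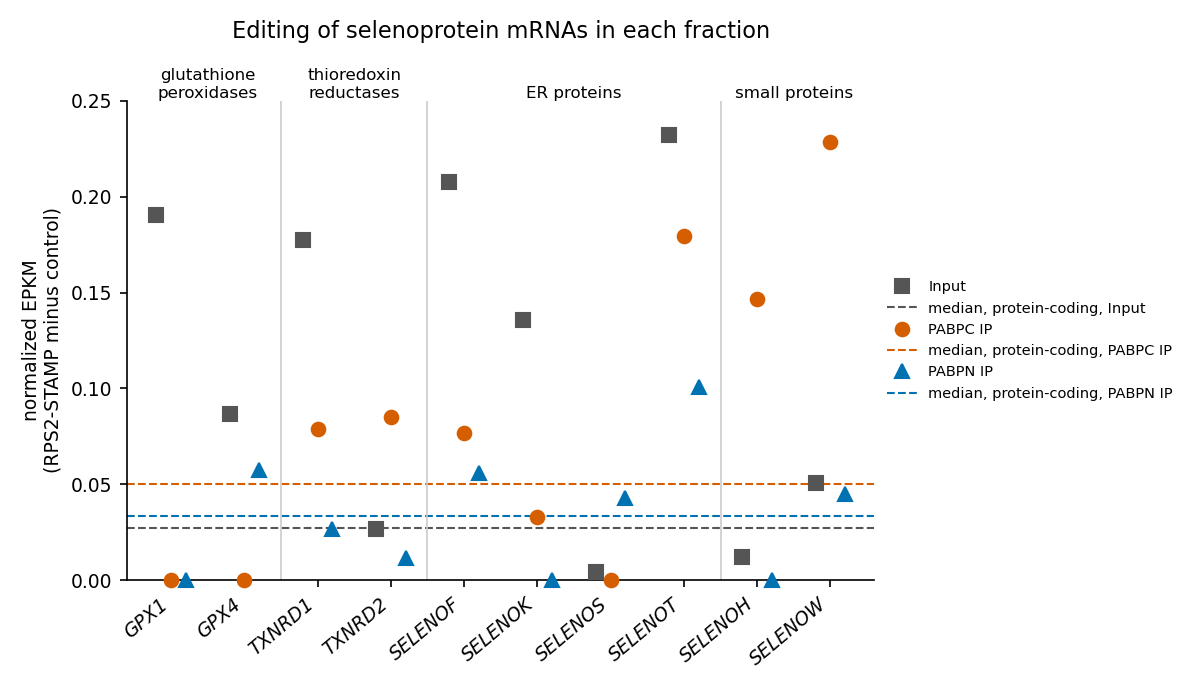
Normalized EPKM of each selenoprotein mRNA in the Input (grey squares), PABPC IP (orange circles) and PABPN IP (blue triangles), with dashed lines at the medians of 9607 protein-coding genes. Values run from 0 to 0.232, with the Input highest in 6 mRNAs, the PABPC IP highest in TXNRD2, SELENOH and SELENOW, and the PABPN IP highest in SELENOS.

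Set side by side, all 10 mRNAs had editing above 0 in the Input, where 78.1% of protein-coding genes did. With PABPC 7 of 10 were above 0 (82.6% of protein-coding genes) and with PABPN 7 of 10 (72.9%). The genes at 0 differed: GPX1, GPX4 and SELENOS with PABPC, and GPX1, SELENOH and SELENOK with PABPN. GPX1 was the sole mRNA at 0 in both IPs, 1 of 10 against 6.12% of protein-coding genes. The Input held the highest value in 6 of 10 mRNAs against 26.6% of protein-coding genes, the PABPC IP in 3 of 10 against 42.6%, and the PABPN IP in 1 of 10 against 28.7%. The median EPKM of the 10 mRNAs was 0.111 in the Input, 0.0779 with PABPC and 0.0348 with PABPN. It thus lay furthest above that of the protein-coding genes in the Input and close to it in the PABPN IP.

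Between the IPs, editing was called different at 2-fold or more on values with 0.01 EPKM added. It was higher with PABPC than with PABPN in 5 of 10 mRNAs (TXNRD1, TXNRD2, SELENOK, SELENOH and SELENOW), where 36.3% of protein-coding genes were. It was lower in 2 of 10 (GPX4 and SELENOS), against 21.1%. Both shares were near the background, and GPX1, SELENOF and SELENOT were between the thresholds. SELENOH and SELENOK count as higher, and GPX4 and SELENOS as lower, with 1 of the IPs at 0. The median difference, PABPC IP minus PABPN IP, was 0.0428 EPKM for the 10 mRNAs and 0.0108 EPKM for the protein-coding genes, and the 10 values ran from -0.0575 in GPX4 to 0.183 in SELENOW. Over genes above 0 in both IPs the medians were 0.0735 EPKM for 5 of the 10 mRNAs and 0.0112 EPKM for 5914 protein-coding genes. With 0.1 EPKM added, which weighs low values less, the counts were 2 higher and 0 lower, against 9% and 3.71% of protein-coding genes. With editing divided by TPM they were 3 higher and 2 lower, against 44% and 18.6%, so that the count of higher editing lay below the background share.

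The comparisons with the Input share its values and are given side by side. Editing was at least 2-fold higher with PABPC than in the Input in 3 of 10 mRNAs (TXNRD2, SELENOH and SELENOW) against 35.1% of protein-coding genes. It was at least 2-fold lower in 5 of 10 (GPX1, GPX4, TXNRD1, SELENOF and SELENOK) against 19.5%. With PABPN it was at least 2-fold higher than in the Input in SELENOS, 1 of 10 against 28.4%, and at least 2-fold lower in 6 of 10 (GPX1, TXNRD1, SELENOF, SELENOK, SELENOH and SELENOT) against 29.6%. GPX1 and GPX4 with PABPC, and GPX1, SELENOK and SELENOH with PABPN, count as lower with the IP at 0. For SELENOH the Input value was 0.0120 EPKM, close to the 0.01 EPKM added. Other added values were not tried for the comparisons with the Input. The counts of lower editing than in the Input thus stood above the background shares. The count of higher editing was near its share with PABPC and below it with PABPN. These differences over 10 genes were not tested. An excess of lower editing was not particular to the 10 mRNAs, as lists compared below show. With PABPN, editing was at least 2-fold lower than in the Input in 12 of 19 redox genes without selenocysteine. It was so in 5 of 8 other selenoproteins and in 3 of 11 genes of the list around selenocysteine. With PABPC it was lower in 7, 2 and 3 genes of these lists.

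Abundance gave a more uniform picture than editing. TPM with PABPC exceeded TPM with PABPN for all 10 mRNAs, which held for 42.4% of protein-coding genes. It was higher with PABPC than in the Input for all 10 (95.4% of protein-coding genes), and higher with PABPN than in the Input for all 10 (96.7%), so the last pair carries little about these mRNAs. The log2 TPM ratio of the median protein-coding gene was 0.95 for PABPC over Input, 1.10 for PABPN over Input and -0.19 for PABPC over PABPN, with 0.5 TPM added, and ratios are given relative to these medians. On this centred scale PABPC over PABPN was at least 0.5 in 9 of 10 mRNAs, against 29.9% of protein-coding genes, and at most -0.5 in 0 of 10, against 31.1%. It ran from 0.45 in SELENOW to 1.89 in GPX4, whose TPM was 3.25-fold higher with PABPC than with PABPN. Without centring, 8 of 10 were at or above 0.5, against 22.7% of protein-coding genes.

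The ratios to the Input split the mRNAs further. The centred ratio of PABPC over Input was at least 0.5 in 6 of 10 mRNAs (GPX1, GPX4, SELENOF, SELENOH, SELENOT and SELENOW), against 9.02% of protein-coding genes, and at most -0.5 in 0 of 10, against 17.4%. Both thioredoxin reductases were close to the median gene, at 0.13 for TXNRD1 and -0.13 for TXNRD2. The centred ratio of PABPN over Input was at least 0.5 in 0 of 10, against 23.7%, and at most -0.5 in 5 of 10 (GPX4, TXNRD1, TXNRD2, SELENOF and SELENOK), against 20.6%. Both counts depended on the scale. Without centring, PABPC over Input was at least 0.5 in 10 of 10 (80.2% of protein-coding genes) and PABPN over Input at most -0.5 in 0 of 10 (0.583%), and at a centred threshold of 1 the counts were 1 (0.0625%) and 0 (4.61%). On the centred scale of PABPN over Input, SELENOK was lowest at -0.94 and SELENOW highest at 0.25. GPX4 stood at 1.18 for PABPC over Input and at -0.67 for PABPN over Input, the widest such gap among the 10 mRNAs.

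**Figure D4:**
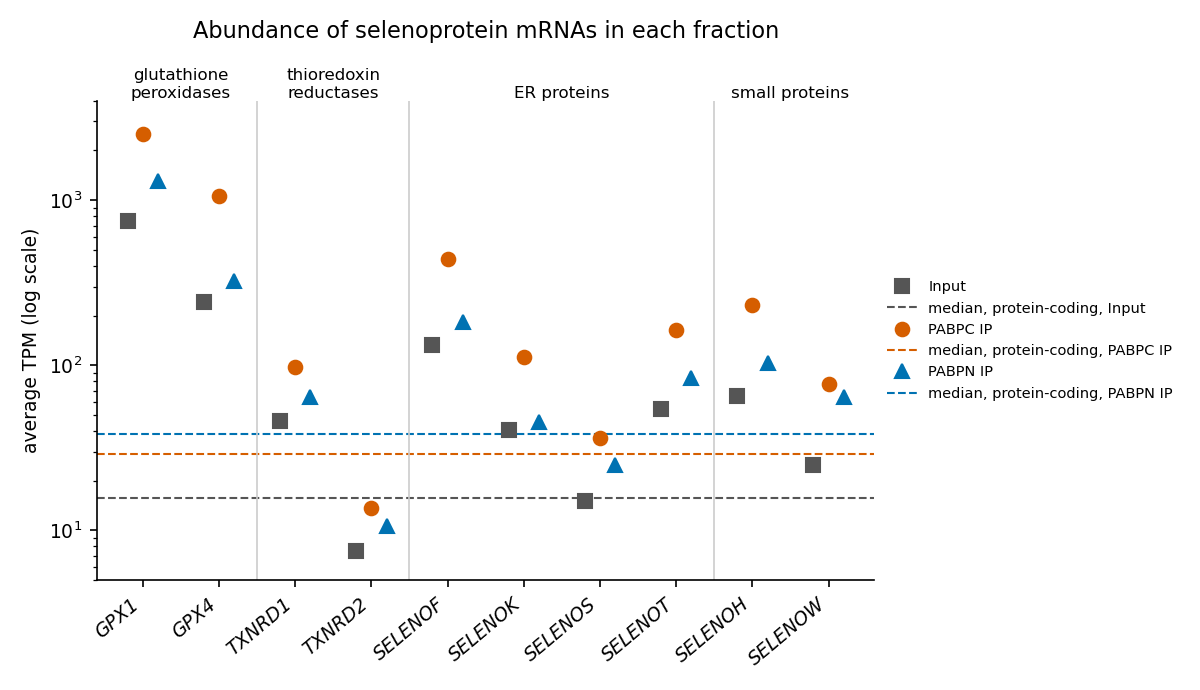
Average TPM (log scale) of each selenoprotein mRNA in the Input (grey squares), PABPC IP (orange circles) and PABPN IP (blue triangles), with dashed lines at the medians of 9607 protein-coding genes. In all 10 mRNAs the PABPC IP is highest and the Input lowest, from 7.56 TPM for TXNRD2 in the Input to 2519 TPM for GPX1 in the PABPC IP.

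Editing and abundance went apart in several of these mRNAs. GPX4 had the largest shift of TPM towards PABPC among the 10 and was listed at 0 for editing there. SELENOW had the smallest shift of TPM and the largest difference of editing towards PABPC. Per 1000 TPM, the median editing of the 10 mRNAs was 1.79 EPKM in the Input, 0.463 with PABPC and 0.360 with PABPN, and that of the protein-coding genes was 1.61, 1.38 and 0.704 in the same order. These ratios were lower among abundant genes, with medians of 1.08, 0.344 and 0.267 in the tenth of protein-coding genes with the highest TPM of each fraction. The 10 mRNAs had a median TPM of 50.1 in the Input, 138 with PABPC and 74.2 with PABPN, against 15.8, 28.9 and 38.4 for the protein-coding genes, so the ratios do not compare genes of like abundance. Whether their short coding sequences bear on these levels was not tested.

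The place of the selenocysteine codon did not separate the levels of editing. The 4 mRNAs with the codon in the last 5 residues had a median EPKM of 0.0811 in the Input, 0.0561 with PABPC and 0.0190 with PABPN. The 6 with the codon farther upstream had medians of 0.139, 0.112 and 0.0506 EPKM in the same order. Per 1000 TPM the direction turned round, with medians of 3.41, 0.551 and 0.743 EPKM for the late codon. For the other 6 they were 0.958, 0.401 and 0.241 EPKM. The mRNAs with the late codon were also less abundant, with a median TPM of 67.2 in the PABPC IP against 338. The ranges overlapped in every fraction: in the PABPC IP they were 0 to 0.0849 EPKM for the set with the late codon and 0 to 0.228 EPKM for the other. The centred TPM ratio of PABPC over Input did not overlap, from -0.13 to 0.49 in the 4 mRNAs with the late codon and from 0.64 to 1.18 in the other 6. The remaining centred TPM ratios did overlap. PABPC over PABPN ran from 0.54 to 1.47 with the late codon and from 0.45 to 1.89 in the other 6. PABPN over Input ran from -0.94 to -0.40 and from -0.67 to 0.25. With 4 and 6 genes this is a description, and the place of the codon goes with other differences such as coding length, 285 to 1950 bases in the first set and 264 to 612 bases in the second.

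Other selenoprotein mRNAs were read for comparison. Of 15 further selenoprotein genes, 9 had values here and 8 passed the TPM filter. Editing was at least 2-fold higher with PABPC than with PABPN in 3 of these 8 (SELENOM, SELENOO and SEPHS2), near the 36.3% of protein-coding genes, and lower in 0, against 21.1%. GPX3, the secreted glutathione peroxidase, had 0.102 EPKM in the Input and 0 in both IPs, the pattern seen in GPX1. SELENOI, an enzyme of phospholipid synthesis, had 0.0502 EPKM in the Input and 0 in both IPs. SELENON, an ER calcium regulator, had 0.0108, 0.176 and 0.109 EPKM in the Input, PABPC IP and PABPN IP. The centred TPM ratio of PABPC over PABPN was at least 0.5 in 5 of the 8 and at most -0.5 in 3 (SELENOI, SELENOO and TXNRD3), against 29.9% and 31.1% of protein-coding genes, so the lean towards PABPC seen in 9 of the 10 mRNAs was not shared by every selenoprotein mRNA. Nor was it particular to selenoproteins: among the redox genes without selenocysteine this ratio was at least 0.5 in 15 of 19 and at most -0.5 in 0. The centred ratio of PABPN over Input was at most -0.5 in 14 of these 19, against 20.6% of protein-coding genes. That of PABPC over Input was at least 0.5 in 4 of the 8 other selenoproteins and 6 of the 19 redox genes, against 9.02%.

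The genes that make, insert or break down selenocysteine, listed together with the RNA-binding proteins RPL30, NCL and EIF4A3, were edited variably. SECISBP2 had 0.0113 EPKM in the Input, 0.120 with PABPC and 0.0663 with PABPN, and EEFSEC had 0.0447, 0.163 and 0. SEPHS1, a paralog of the selenophosphate synthetase SEPHS2, had 0.113, 0.0996 and 0.0762 EPKM, and SEPSECS and PSTK, which convert the serine on the transfer RNA, did not pass the TPM filter. Over the 11 of 13 genes that passed, with SEPHS2 again among them, 4 were at least 2-fold higher with PABPC than with PABPN (EEFSEC, SECISBP2L, SEPHS2 and TRNAU1AP) and 2 lower (NCL and SCLY, the lyase that breaks selenocysteine down), against 36.3% and 21.1% of protein-coding genes. Of 21 redox genes without selenocysteine, 19 passed, with 8 higher and 4 lower. The difference between the IPs in that list ran from -0.0656 EPKM in PRDX1 to 0.254 EPKM in PRDX5. The medians of the PABPC IP minus PABPN IP difference were 0.0156 EPKM for the other selenoproteins, 0.0264 for the list around selenocysteine and 0.0112 for the redox genes, beside 0.0428 for the 10 mRNAs, and the values of all lists overlapped.

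**Figure D5:**
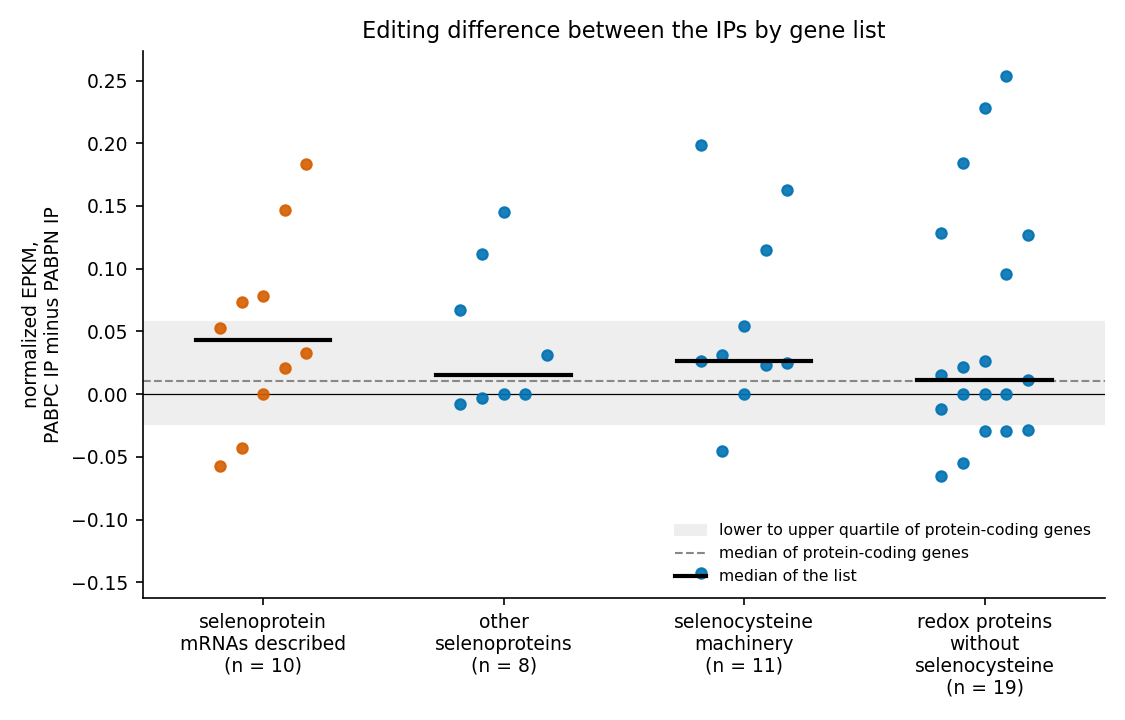
Normalized EPKM in the PABPC IP minus that in the PABPN IP for each gene (points) of 4 lists, with the median of each list (black bars) and, for 9607 protein-coding genes, the range from lower to upper quartile (grey band) and the median (dashed line). The 10 selenoprotein mRNAs run from -0.0575 to 0.183 and overlap the other lists.

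The protein-coding genes outside these lists with the profile nearest to the median of the 10 mRNAs were RPL26L1, PDAP1 and SEC13, at distances of 0.689, 0.690 and 0.713 over the 6 log2 values of EPKM and TPM. TXNRD1 was the nearest of the 10 mRNAs to their own median, at 0.876, and GPX1 the farthest, at 8.06.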

How the data were processed

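RPS2-STAMP and Control-STAMP samples were grouped by fraction from the labels. Per the authors' methods and processing notes, reads were aligned to hg38 with STAR and counted with featureCounts 2.0.2 (minimum overlap of 20 bases) on an annotation derived from GENCODE release 34 without regions of overlapping genes. The authors took edits with a confidence score of at least 0.5 and deposited, as normalized EPKM, an editing signal from which the control had been subtracted. The sources used here do not say how replicates entered it or how negative differences were treated. The authors' deposited TPM averages (the sum of exonic and intronic TPM) are treated as a score, since each stands beside all 3 editing values of its gene. Summed over genes they gave 854272 in the Input, 995724 with PABPC and 975719 with PABPN. The study describes the Input and both IPs of the STAMP experiment as cytoplasmic, and the labels name no fractionation.

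Computed here, with Python 3.11.15, NumPy 2.4.6, pandas 2.3.3, Biopython 1.88 and matplotlib 3.10.9, were log2 ratios of EPKM + 0.01 and of TPM + 0.5, EPKM per 1000 TPM, and counts past 2-fold (EPKM) or 0.5 on the centred log2 scale (TPM), over protein-coding genes reaching 5 TPM in each IP. The counting was tested on simulated data. No test was run, because no values of single samples were analysed. Named were the 10 mRNAs, other selenoproteins, SECISBP2, EEFSEC, SEPSECS, PSTK, SEPHS1, the extremes of the redox list by PABPC IP minus PABPN IP, and the 3 genes nearest to the median profile (Euclidean distance). Other genes of the lists were named where a count rests on them. GPX1P1 and the further copies were added after values were seen, as was the reading of TXN, the peroxiredoxins, RPL30, NCL and EIF4A3. Not every gene overlapping a member is reported here. Members and lists were chosen with earlier results of these data known. Alternatives covered pseudocounts, thresholds, centring, filters and leaving out each mRNA.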

Additional observations from a re-analysis of the deposited data

How the results depend on the processing

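The values are pooled, so leaving out replicates was not run. No paired analysis was possible because the deposited columns carry no replicate values. Of 41 alternatives, 18 left a result within 1.5 times (counts) or its 95% Wilson interval (shares) and 23 moved it. Counts and shares could be scored only as left or moved. A reversal could be scored for the median difference alone, and 0 were seen. Of the 23, 12 concern the median difference, which has no replicate spread and counts as moved at any change. With 0.1 EPKM added, members at least 2-fold higher with PABPC than with PABPN numbered 2 (9% of protein-coding genes) and those higher with PABPN 0 (3.71%), against 5 and 2. With EPKM divided by TPM, those higher with PABPC numbered 3 (44%) and those higher with PABPN 2 (18.6%). The median difference between the IPs, 0.0428 EPKM, became 0.0488 as a mean, 0.0331 to 0.0525 without each mRNA in turn, and 0.0735 over the mRNAs above 0 in both IPs. Centred TPM ratios depended on centring and threshold: for PABPC over Input, 10 mRNAs were above the threshold without centring (80.2% of protein-coding genes above, 0.854% below) and 1 at a threshold of 1 (0.0625% above), against 6 (9.02%). For PABPN over Input, 0 were below without centring (84.1% of protein-coding genes above, 0.583% below) and 0 at a threshold of 1 (4.61% below), against 5 (20.6%). Without centring, PABPC over PABPN was above in 22.7% and below in 37.2% of protein-coding genes. The share of protein-coding genes at least 2-fold higher with PABPC than with PABPN was 33.1% at a TPM of at least 1 and 30.2% over every listed gene, and that lower 21.9% and 22.1%. The cause of these shifts was not tested, and the depth of each fraction is not given in the sources used here.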

Other observations

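Thioredoxin, the substrate of TXNRD1, and the peroxiredoxins, some of which it reduces, were read after the values were seen. TXN had 0.752 EPKM in the Input, 0.332 with PABPC and 0.147 with PABPN, and PRDX1 had 0.660, 0.238 and 0.303. TXN was thus edited above its reductase TXNRD1 in every fraction, and both shared the order Input, PABPC IP, PABPN IP. Per 1000 TPM the ranking turned round, with 1.31, 0.210 and 0.259 EPKM for the more abundant TXN and 3.85, 0.804 and 0.414 for TXNRD1 in the Input, PABPC IP and PABPN IP. PRDX3, the mitochondrial peroxiredoxin, had 0.164 EPKM in the Input and was listed at 0 in both IPs, as were GPX1 and GPX3, with a TPM of 182 in the Input, 436 with PABPC and 188 with PABPN. PRDX5 had 0.111, 0.254 and 0 EPKM, highest with PABPC, PRDX4 had 0.253, 0.0914 and 0.0801, and PRDX6, which is reduced through glutathione instead, had 0.392, 0.121 and 0.133. PRDX2 had 0.466, 0.101 and 0 EPKM, and its TPM was not analysed here. Of the 19 redox genes that passed the TPM filter, 11 had their highest editing in the Input (26.6% of protein-coding genes) and 3 were at 0 in both IPs (6.12%).

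Among proteins reported to bind SECIS elements, RPL30, NCL and EIF4A3, all in the list around selenocysteine, differed. RPL30, a ribosomal protein, had 0.440 EPKM in the Input, 0.712 with PABPC and 0.514 with PABPN. NCL, which encodes nucleolin, had 0.0320, 0.00548 and 0.148 EPKM, with its highest value in the PABPN IP, as in SELENOS. EIF4A3, an RNA helicase, had 0.0294 EPKM in the Input and was listed at 0 in both IPs.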
